A study of Rattus norvegicus with 138 samples.

Results

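Gene expression in the solitary tract nucleus (NTS) was compared with that in the caudal ventrolateral medulla (CVLM) within the same animals, in 28 female spontaneously hypertensive rats (SHRs). Each rat gave 1 RNA-seq library from each region, so that 56 of the 138 libraries of the series entered the comparison, and both libraries of a rat were paired through the strain, age and rat number in their names. There were 5 SHRs of 8 wk, 5 of 10 wk and 6 each of 12, 16 and 24 wk, which were pooled and then examined by age. All were SHR/NHsd rats housed singly with no treatment, in a strain that the study counts as prehypertensive at the youngest age, so that the youngest animals are not hypertensive ones. Both regions of 18 female WKY/NHsd rats, the normotensive Wistar-Kyoto control strain, of the same ages and the rostral ventrolateral medulla (RVLM) of the 28 SHRs were used beside the main comparison. Tissue was taken by bilateral micropunch from frozen sections, so each library holds all the cells of a punch, and fewer cells of a type and less RNA per cell cannot be told apart in any of the values that follow.

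The NTS, in the dorsal medulla, is where sensory fibers from the arterial baroreceptors, heart, lungs and gut end, and it relays blood pressure signals forward. The CVLM holds GABA neurons that receive this relay and inhibit the RVLM, whose neurons in turn drive the sympathetic outflow. Neurons of the caudal NTS also make appetite and stress peptides, and the ventrolateral medulla holds catecholamine neurons beside cells of the lateral reticular formation that project to the cerebellum.

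The SHR libraries held 6078832 to 16382711 counts in the NTS, with a median of 9187426, and 5904570 to 17088079 in the CVLM, with a median of 10295005. In a principal component analysis of the 1000 most variable genes, the first component held 34.5% of the variance and mixed the regions, running from -33.9 to 31.8 in the NTS and from -42.1 to 27.3 in the CVLM. The second component held 27.3% and kept all NTS libraries (8.7 to 25.5) apart from all CVLM libraries (-23.2 to -13.8), so no library stood with the other region. The labels of the CVLM library of 1 SHR, placed at 8 wk by its column name, give conflicting ages. Neuronal genes were high in both regions, as for Snap25, a synaptic fusion protein, with medians of 1943 CPM, counts scaled to the library total, in the NTS and 3299 in the CVLM. Ttr, the defining gene of the choroid plexus, was near 0, at no more than 2.39 CPM in the NTS and 2.14 in the CVLM.

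Of 13927 genes tested, 544 (3.91%) were higher in the NTS and 183 (1.31%) were higher in the CVLM, 727 (5.22%) in all. A gene was called where the edgeR quasi-likelihood test with rat as a block gave an adjusted p of at most 0.01 and the absolute log2 fold change was at least 1, a 2-fold difference. Without the fold threshold, 3723 genes (26.7%) were higher in the NTS and 3174 (22.8%) in the CVLM, at a median standard error of 0.064 on the log2 scale. Of the called genes, 394 had the same sign of difference in all 28 rats. Over all genes, 199 (1.43%) had NTS and CVLM values that did not overlap at all, and 152 of these were called. In a single rat, the median difference over the called genes ran from 0.90 to 1.59 for those higher in the NTS. For those higher in the CVLM it ran from -1.64 to -1.04. The called genes were selected by their difference in these same rats, so the sign and size of these medians are no separate support.

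**Figure D1:**
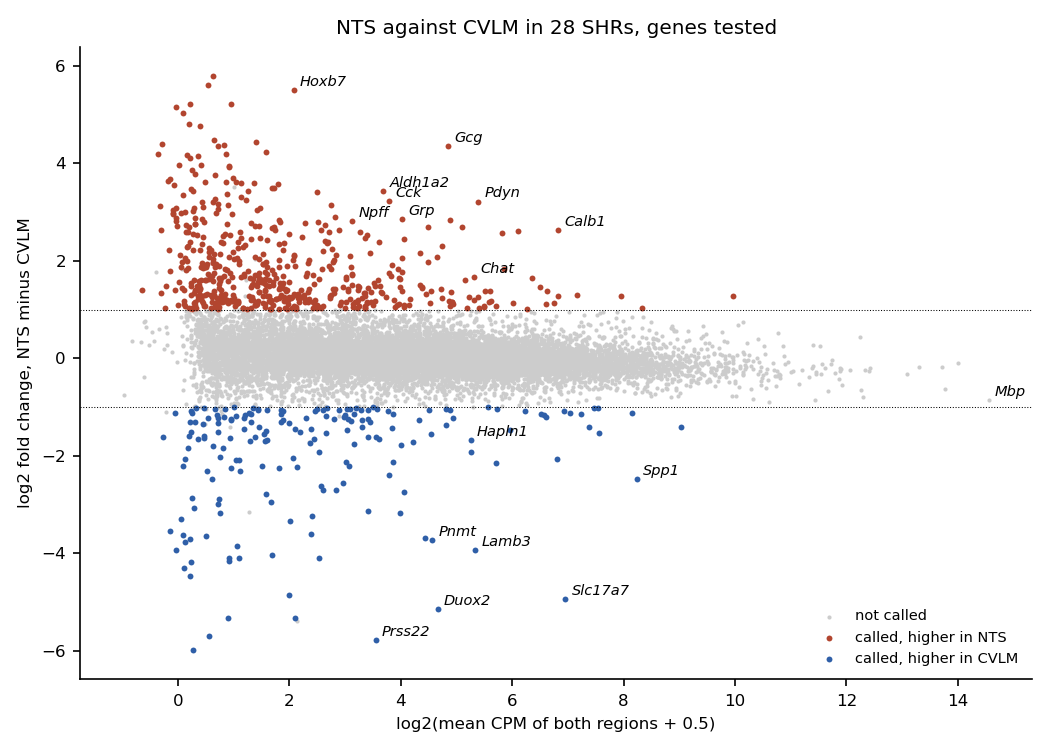
Each point is 1 of the 13927 genes tested in the 28 SHRs, plotted by its mean level in both regions (x axis, log2 of CPM + 0.5) and its log2 fold change, NTS minus CVLM (y axis), and dotted lines mark a 2-fold difference. The 544 genes called higher in the NTS are red and the 183 higher in the CVLM are blue, with the peptide genes Gcg, Pdyn, Cck and Grp on the NTS side and Slc17a7, Lamb3 and Pnmt on the CVLM side.

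Among genes with a median of at least 5 CPM and 1 sign in every rat, the 12 with the largest NTS excess included Hoxb7, Gcg, Klhl30, Aldh1a2, Enkur, Cck, Pdyn, Grem1, Cldn9, Grp and Npff, and Gcg, Cck, Pdyn, Grp and Npff encode peptide transmitters. Hoxb7, a homeobox gene of posterior hindbrain and spinal cord identity, had 7.06 CPM in the NTS (1.51 to 19.4) and 0.087 in the CVLM (0 to 1.19), and its log2 fold change of 5.49 ± 0.27 (SE) rests on counts near 0 in the CVLM. Aldh1a2, the enzyme that makes retinoic acid, had 20.8 CPM (6.20 to 62.6) against 1.90 (0.58 to 5.23), and every NTS library lay above every CVLM library. Grem1, a secreted antagonist of bone morphogenetic proteins, had 10.5 CPM (5.92 to 18.5) against 1.23 (0.26 to 3.65), also without overlap. Enkur, a protein of motile cilia, and Cldn9, a tight junction claudin, rose by 3.40 ± 0.12 and 2.90 ± 0.12 on the log2 scale, and Klhl30, a kelch-like gene, by 3.49 ± 0.21. The values of both regions overlapped for Gcg and Npff.

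On the CVLM side the 12 genes by the same rule were Prss22, Tyrp1, Duox2, Slc17a7, Wnt2b, Tmem72, Lamb3, Pnmt, Sdc1, Syt15, Tle6 and the unnamed gene AABR07044404.1. Slc17a7, the vesicular glutamate transporter VGLUT1, had 239 CPM in the CVLM (72.0 to 416) and 5.89 in the NTS (2.10 to 22.1), a log2 fold change of -4.94 ± 0.19 (SE, edgeR adjusted p = 1.55e-18). Lamb3, a laminin subunit of basement membranes, had 75.6 CPM (31.7 to 125) in the CVLM against 4.62 (1.92 to 7.34). Pnmt, which converts noradrenaline to adrenaline, had 41.5 CPM (21.96 to 82.5) against 2.56 (0.071 to 12.7), and its difference was -3.73 ± 0.24. Prss22, a serine protease, had 21.2 CPM (7.90 to 42.0) in the CVLM against 0.35 (0 to 0.97). Duox2, an enzyme that makes hydrogen peroxide, had 45.99 CPM (15.0 to 80.2) against 1.03 (0.14 to 3.55). Sdc1, a heparan sulfate proteoglycan of the cell surface, had 36.2 CPM (19.0 to 87.2) against 2.85 (1.89 to 4.69).

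In the RVLM of the same rats, several of these CVLM genes had a median close to that of the NTS. It was 7.28 CPM for Slc17a7, 4.60 for Lamb3, 0.55 for Prss22 and 0.67 for Duox2. Pnmt and Sdc1 lay between the other regions, with RVLM medians of 20.9 and 7.69 CPM. Between the CVLM and the RVLM, 646 genes (4.64%) were called by the first rule in a fit over all 3 regions, 376 higher in the CVLM and 270 in the RVLM. The difference, CVLM minus RVLM on the log2 scale, was 5.0 ± 0.20 (SE) for Slc17a7 and 3.96 ± 0.12 for Lamb3, and 0.79 ± 0.22 for Pnmt, which was under the fold threshold. This comparison shares the CVLM libraries with the comparison against the NTS, so the values only stand side by side.

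**Figure D2:**
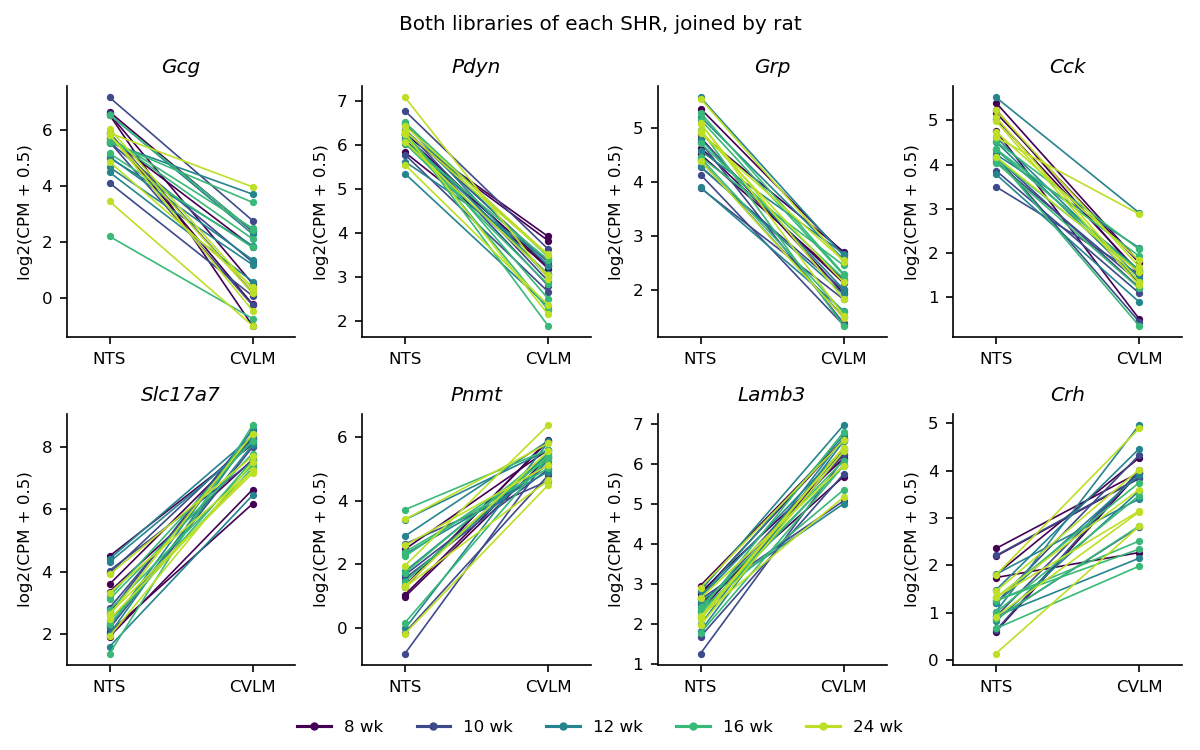
Levels of 8 genes as log2(CPM + 0.5) in the NTS and the CVLM, with a line for each of the 28 SHRs, coloured by age. The 4 peptide genes in the upper row fall from the NTS to the CVLM in every rat, and the 4 genes in the lower row rise in every rat, with a wide spread of Gcg in both regions.

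Genes of the neuropeptide precursor list were called more often than genes at large. Neurons cut their peptide transmitters from such precursors, but the list also holds cerebellins (Cbln1, Cbln2, Cbln4) and neurexophilins (Nxph1, Nxph3, Nxph4), which are not such precursors. Cbln1 and Cbln2 are among its genes called higher in the NTS. Of 54 listed, 40 were tested, 15 were higher in the NTS and 3 in the CVLM, 45% called against 5.22% of all genes, and the median log2 fold change was 0.58 against 0.03 over all genes. Gcg, whose NTS product is glucagon-like peptide 1, had 51.5 CPM (4.06 to 141) in the NTS and 1.84 (0 to 15.0) in the CVLM, a log2 fold change of 4.36 ± 0.29 (SE). Pdyn, the precursor of the dynorphin opioids, had 74.7 CPM (40.1 to 134) against 7.85 (3.21 to 14.6), 3.21 ± 0.10. These values did not overlap for Pdyn, whereas the lowest NTS libraries for Gcg lay within the range of the CVLM. Cck, the precursor of cholecystokinin, had 21.2 CPM (10.8 to 45.5) against 2.39 (0.77 to 7.0). Grp, gastrin-releasing peptide, had 26.6 CPM (14.2 to 46.7) against 3.69 (2.02 to 6.01). Npff, a peptide that modulates opioid action, had 15.5 CPM (1.99 to 34.7) against 1.78 (0.39 to 5.46), with overlap at the low end.

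Prlh, prolactin-releasing peptide, which NTS noradrenaline neurons make, had 3.501 CPM (1.13 to 8.78) against 0.12 (0 to 0.95). Adcyap1, the precursor of the peptide PACAP, had 127 CPM (84.6 to 254) against 45.7 (34.2 to 58.9), 1.45 ± 0.08 (edgeR adjusted p = 1.03e-16). Pomc, the precursor of melanocortins and beta-endorphin, had 12.96 CPM (5.38 to 22.2) against 4.59 (2.33 to 7.0), and was higher in the NTS of all 28 rats. Higher in the CVLM were Crh, corticotropin-releasing hormone, with 12.2 CPM (3.45 to 30.5) against 1.84 (0.60 to 4.62), and Tac3, the precursor of neurokinin B, with 7.30 (4.04 to 16.1) against 2.09 (0.87 to 4.49). The other, Vip, had 0.90 CPM in the CVLM and 0.32 in the NTS. Cartpt, a feeding and stress peptide, had 80.5 CPM in the NTS and 46.8 in the CVLM, 0.66 ± 0.11, under the fold threshold, and Tac1, the substance P precursor, did not pass the test, with 93.0 and 93.4 CPM and a difference of 0.08 ± 0.09. Penk, the enkephalin precursor, was lower in the NTS, unlike Pdyn, by a difference under the fold threshold, -0.43 ± 0.06.

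To show what the NTS peptide genes share at their starts, the 250 bases before each RefSeq start (GRCr8) were searched for 15 letter strings on both strands, chosen with the calls known. They were the X-box form GTTGCTAGG, another form GTTGCCAT with its core GTTGCCA and the variant GTTACCAT, the cyclic AMP element TGACGTCA with the variant TGACGTAA and its core TGACGT, the E-box CACGTG and another E-box CAGGTG, the TATA box as TATAAA, the nuclear receptor core AGGTCA, and the strings AATGAATT and TAATTA. An extended X-box and an extended nuclear receptor motif completed them, and cores and longer forms overlap. A promoter was held for 10239 tested symbols. The string TATAAA was in 7 of the 12 genes of the peptide list that were higher in the NTS and had one (58.3%). It was in 12 of 28 tested genes of that list (42.9%) and in 720 of all tested genes (7.03%). The 7 were Adcyap1, Gcg, Grp, Hcrt, Pdyn, Pomc and Prlh. The promoters of 3 of these are printed over 100 bases, 5′ to 3′ on the strand of the gene, with the TATAAA in capitals. They lie at chr3:67531534-67531633 on the minus strand (Gcg), chr3:137366504-137366603 on the minus strand (Pdyn) and chr9:98994063-98994162 on the plus strand (Prlh).
Gcg: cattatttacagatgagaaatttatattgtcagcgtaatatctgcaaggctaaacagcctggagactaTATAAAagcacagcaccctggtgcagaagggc
Pdyn: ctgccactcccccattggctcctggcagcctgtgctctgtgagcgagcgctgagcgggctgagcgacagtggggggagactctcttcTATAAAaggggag
Prlh: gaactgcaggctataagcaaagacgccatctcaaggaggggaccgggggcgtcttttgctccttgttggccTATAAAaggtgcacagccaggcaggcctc
The string begins 32, 13 and 29 bases before the annotated start, respectively. It is a description of letters and not of binding.

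Receptors for peptides and hormones were also called more often than genes at large. Of 57 tested, 15 were higher in the NTS and 3 in the CVLM, 31.6% against 5.22% of all genes, with a median log2 fold change of 0.27. Prlhr, the receptor of prolactin-releasing peptide, had 2.68 CPM (1.28 to 6.32) in the NTS and 0.23 (0 to 1.15) in the CVLM. Gfral, the receptor of the nausea signal GDF15, had 5.67 CPM (3.48 to 10.8) against 1.00 (0.18 to 2.52), without overlap. Calcr, the calcitonin receptor, had 23.4 CPM (14.4 to 36.1) against 7.12 (2.20 to 18.8). Ramp3, which turns the calcitonin receptor into a receptor for amylin, had 26.1 CPM (15.3 to 39.2) against 5.52 (3.42 to 9.87), 2.05 ± 0.08 (SE, edgeR adjusted p = 4.30e-22). Agtr1a, the angiotensin II receptor AT1a, had 10.8 CPM (7.46 to 19.1) against 4.05 (2.67 to 6.55), 1.41 ± 0.10, and the groups did not overlap. Cckar, a receptor for cholecystokinin, had 2.22 CPM against 0.52, and Oxtr, the oxytocin receptor, 1.47 against 0.44. Higher in the CVLM were Crhr1, a receptor for corticotropin-releasing hormone, with 11.9 CPM (6.28 to 16.2) against 5.26 (2.76 to 9.49), Mas1, the receptor of angiotensin 1-7, and Oprd1, the delta opioid receptor. Glp1r, the receptor of glucagon-like peptide 1, differed in the opposite direction from its ligand gene, with 4.71 CPM in the CVLM and 3.10 in the NTS, -0.58 ± 0.10, under the fold threshold.

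Among the genes of the renin-angiotensin system, which sets blood volume and pressure, 1 of 11 tested was higher in the NTS and 2 in the CVLM. That was 27.3% called against 5.22% of all genes, with a median of -0.06. The NTS gene was Agtr1a. The CVLM genes were Mas1, with 2.45 CPM (1.02 to 4.84) against 0.60 (0 to 1.603), and Enpep, the aminopeptidase that turns angiotensin II into angiotensin III, with 10.9 CPM (8.57 to 14.1) against 4.30 (2.40 to 7.54). Agt, angiotensinogen, which astrocytes make, had 1416 CPM in the NTS and 814 in the CVLM, 0.67 ± 0.04, under the fold threshold. Ace, the converting enzyme, had 21.01 and 21.5 CPM and did not pass the test. Of the nitric oxide list, 1 of 8 tested genes was called (12.5% against 5.22% of all genes). Nos1, the neuronal synthase, had 4.85 CPM (1.75 to 8.03) in the NTS against 1.54 (0.57 to 3.45), 1.55 ± 0.10, and was higher in the NTS of all 28 rats.

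Of 13 catecholamine genes tested, 1 was called (7.69% against 5.22% of all genes), with a median of -0.10. Th, the rate-limiting enzyme of the pathway, did not pass the test, with 129 CPM (74.9 to 193) in the NTS and 137 (71.9 to 223) in the CVLM, a difference of -0.10 ± 0.09. Dbh, which makes noradrenaline, had 62.4 CPM against 85.4, -0.42 ± 0.07, and Ddc, the decarboxylase, 27.3 against 14.8, 0.85 ± 0.08, both under the fold threshold. The called gene was Pnmt. Acetylcholine genes were higher in the NTS in 3 of 7 tested (42.9% called against 5.22% of all genes), with a median of 0.89. Chat, the synthetic enzyme, had 61.0 CPM (26.5 to 127) against 19.2 (8.01 to 32.6) and was higher in the NTS of 27 of 28 rats. Slc18a3, the vesicular transporter, had 86.0 CPM (37.1 to 208) against 21.9 (5.12 to 59.2), and Slc5a7, which takes up choline, 170 (52.1 to 349) against 64.0 (18.4 to 107). In the RVLM the Chat median was 242 CPM, above both.

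Markers of motor neurons, which also make acetylcholine, were measured beside these genes. Of 6 motor neuron genes tested, 2 were called (33.3% against 5.22% of all genes), both higher in the NTS. Among them was Calca, the precursor of CGRP, at 1.604 ± 0.287 and -0.15 in the 8 wk rats alone. The summed level of the 6 was 86.6 to 454 CPM in the NTS and 95.7 to 219 in the CVLM, higher in the NTS of 20 of 28 rats. Isl1, the defining factor, had 4.16 CPM against 2.43, 0.93 ± 0.18. The part of these cells in the acetylcholine result was not tested. Of 6 serotonin neuron markers tested, Tph2, the synthetic enzyme, had 21.4 CPM (10.8 to 31.1) in the NTS against 5.55 (2.89 to 16.7), higher in all 28 rats, and Slc22a3, a monoamine transporter, was called too. Slc6a4, the serotonin transporter, was near 0, with medians of 0.14 CPM in the NTS and 0.26 in the CVLM. Gata3, a transcription factor of that list, was higher in the CVLM. Of the serotonin list 50% were called, against 5.22% of all genes.

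Genes of inhibitory transmission showed no called member among 10 tested for synthesis and transport, against 5.22% of all genes. Their median was 0.22. At an adjusted p of at most 0.01, 5 were higher in the NTS and 2 in the CVLM, against 26.7% and 22.8% of all genes. Gad1, which makes GABA, had 262 CPM (223 to 504) in the NTS and 171 (126 to 342) in the CVLM, 0.64 ± 0.05, higher in the NTS of 28 of 28 rats. Slc6a5, the glycine transporter of glycine neurons, went the other way, with 102 CPM (64.6 to 162) against 168 (110 to 232), -0.67 ± 0.09. Gad2 had 255 and 195 CPM, and Slc32a1, the vesicular transporter of both, 3.07 and 4.13. Of 23 GABA-A and glycine receptor subunits, 3 were called (13% against 5.22% of all genes), all higher in the NTS. Gabra4 had 41.4 CPM (30.1 to 68.6) against 14.7 (10.5 to 29.1), without overlap, and the others were Glra3 and Glra4.

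On the excitatory side, Slc17a6, the main glutamate transporter of the brainstem (VGLUT2), had 329 CPM (227 to 488) in the NTS and 289 (213 to 379) in the CVLM, 0.21 ± 0.04, in contrast to the CVLM excess of Slc17a7. Of 9 genes tested for vesicular transport and supply of glutamate, 2 were called (22.2% against 5.22% of all genes). Both were higher in the CVLM, and the median was -0.28. Of 27 glutamate receptor subunits, Cacng5, an AMPA receptor auxiliary subunit, was higher in the NTS at 1.15 ± 0.09, and Grm8, an inhibitory metabotropic receptor, was higher in the CVLM with 43.5 CPM (29.0 to 58.4) against 18.3 (14.01 to 20.7), -1.23 ± 0.05. Of that list 7.41% were called, near the 5.22% of all genes, and its median was -0.03. Of 6 markers of cerebellum and neighbouring hindbrain nuclei tested, 4 were called (66.7% against 5.22% of all genes), and Slc17a7 is itself one of them. Barhl1, a transcription factor of neurons that project to the cerebellum, had 1.301 CPM (0.12 to 2.79) in the CVLM against 0 (0 to 0.45). Cbln3, a cerebellin of granule neurons, had 2.85 CPM (1.15 to 4.97) against 0.12 (0 to 0.90). Calb1, a calcium buffer, was higher in the NTS, with 184 CPM (96.5 to 425) against 29.4 (15.7 to 75.0). The part of such neurons in the Slc17a7 result was not tested.

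Of 19 adrenergic and cholinergic receptors, 3 were called (15.8% against 5.22% of all genes), and of 25 serotonin and purinergic receptors 2 (8%). Among the former, the nicotinic subunits Chrna3 and Chrnb4 were higher in the NTS, with 24.1 CPM (10.98 to 38.4) against 6.48 (2.80 to 11.2) and 6.04 (1.85 to 11.6) against 1.15 (0.38 to 3.65). Chrna6 was higher in the CVLM, with 3.19 CPM (1.32 to 6.15) against 0.10 (0 to 0.80). The median of the list was 0.16. Among the latter, P2rx2, an ATP-gated channel of visceral afferent relay, was higher in the NTS, with 20.3 CPM (11.7 to 35.8) against 6.19 (3.60 to 9.41), and P2rx5 in the CVLM, with 13.3 (10.4 to 16.0) against 5.70 (2.81 to 10.6). The median of that list was -0.01.

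Of 11 sodium channel subunits, which carry the action potential, Scn9a (Nav1.7) and Scn3a (Nav1.3) were higher in the NTS, 18.2% called against 5.22% of all genes. Scn9a had 17.3 CPM (9.30 to 31.03) against 3.75 (2.21 to 5.83), 2.16 ± 0.11 (SE). Scn4b, a subunit of fast-firing neurons, had 97.0 CPM in the NTS and 185 in the CVLM, -0.90 ± 0.07, under the fold threshold. Of 64 potassium and HCN channels, 5 were higher in the NTS and 1 in the CVLM, 9.38% against 5.22% of all genes, with a median of 0.13. Kcna5 had 2.83 CPM (0.97 to 5.80) in the NTS against 0.23 (0 to 0.96), and Kcns3, a modulatory subunit, 36.6 CPM (15.2 to 58.6) in the CVLM against 10.5 (5.89 to 23.4). Of 14 calcium channel subunits, 3 (21.4% against 5.22% of all genes) were higher in the NTS, with a median of 0.43. They were Cacnb3 and the T-type channels Cacna1g, with 9.46 CPM (5.66 to 13.1) against 3.51 (1.56 to 5.09), and Cacna1h, with 4.22 (1.93 to 7.19) against 1.37 (0.39 to 3.78).

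Most genes of the neurofilament and large neuron list were lower in the NTS. Of 16 tested, 12 had an adjusted p of at most 0.01 with higher values in the CVLM, against 22.8% of all genes, 2 of them past the fold threshold, 1 was called higher in the NTS, and the median was -0.59. Spp1, osteopontin, which large brainstem neurons express, had 530 CPM (323 to 827) in the CVLM against 90.4 (53.1 to 146), -2.47 ± 0.07 (edgeR adjusted p = 1.29e-23). Nefh, the heavy neurofilament, had 372 CPM (161 to 696) against 155 (54.9 to 480). Nefm and Vamp1 were lower in the NTS by 0.77 and 0.84, in all 28 rats. Of 12 perineuronal net genes, Hapln1, a link protein of the net, was higher in the CVLM, with 55.8 CPM (27.7 to 92.1) against 17.7 (5.86 to 32.4), and Tnc, tenascin C, higher in the NTS, with 4.96 (2.18 to 9.34) against 1.57 (0.55 to 3.92). Of that list 16.7% were called, against 5.22% of all genes, and its median was -0.08. Cplx2, a complexin of the release machinery, had 243 CPM (166 to 331) in the CVLM against 92.4 (57.5 to 140).

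Transcription factors of hindbrain neuron identity were called in both directions. Of 55 tested, 17 were higher in the NTS and 7 in the CVLM, 43.6% against 5.22% of all genes, with a median of 0.47. Nr4a2, an orphan nuclear receptor of excitatory neurons, had 11.9 CPM (5.55 to 18.8) in the NTS against 1.80 (0.77 to 3.91), without overlap. Ebf3 had 3.43 CPM (1.61 to 5.36) against 0.76 (0.17 to 1.62), Lhx2 2.27 against 0.26, and the zinc finger factor Zic4 13.9 against 5.43. On the CVLM side, Neurod6 had 26.8 CPM (17.7 to 40.1) against 4.05 (1.75 to 7.34), and Gata3 4.61 (2.12 to 9.84) against 0.52 (0 to 1.79), both without overlap. Of 16 Hox genes, which mark position along the neuraxis, Hoxb7, Hoxb6 and Hoxa5 were higher in the NTS (18.8% against 5.22% of all genes), and Hoxa5 lost its call under limma (adjusted p = 0.0122). Hoxb6 had 9.94 CPM (3.70 to 19.2) against 2.24 (0.39 to 6.28), and its median in the RVLM was 0. Of 15 retinoic acid genes, Aldh1a2 and the receptor Rarb, with 36.8 CPM (28.8 to 51.0) against 14.2 (7.33 to 20.8), were higher in the NTS. Cyp26b1, which degrades retinoic acid, was higher in the CVLM. Of that list 20% were called, against 5.22% of all genes.

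**Figure D3:**
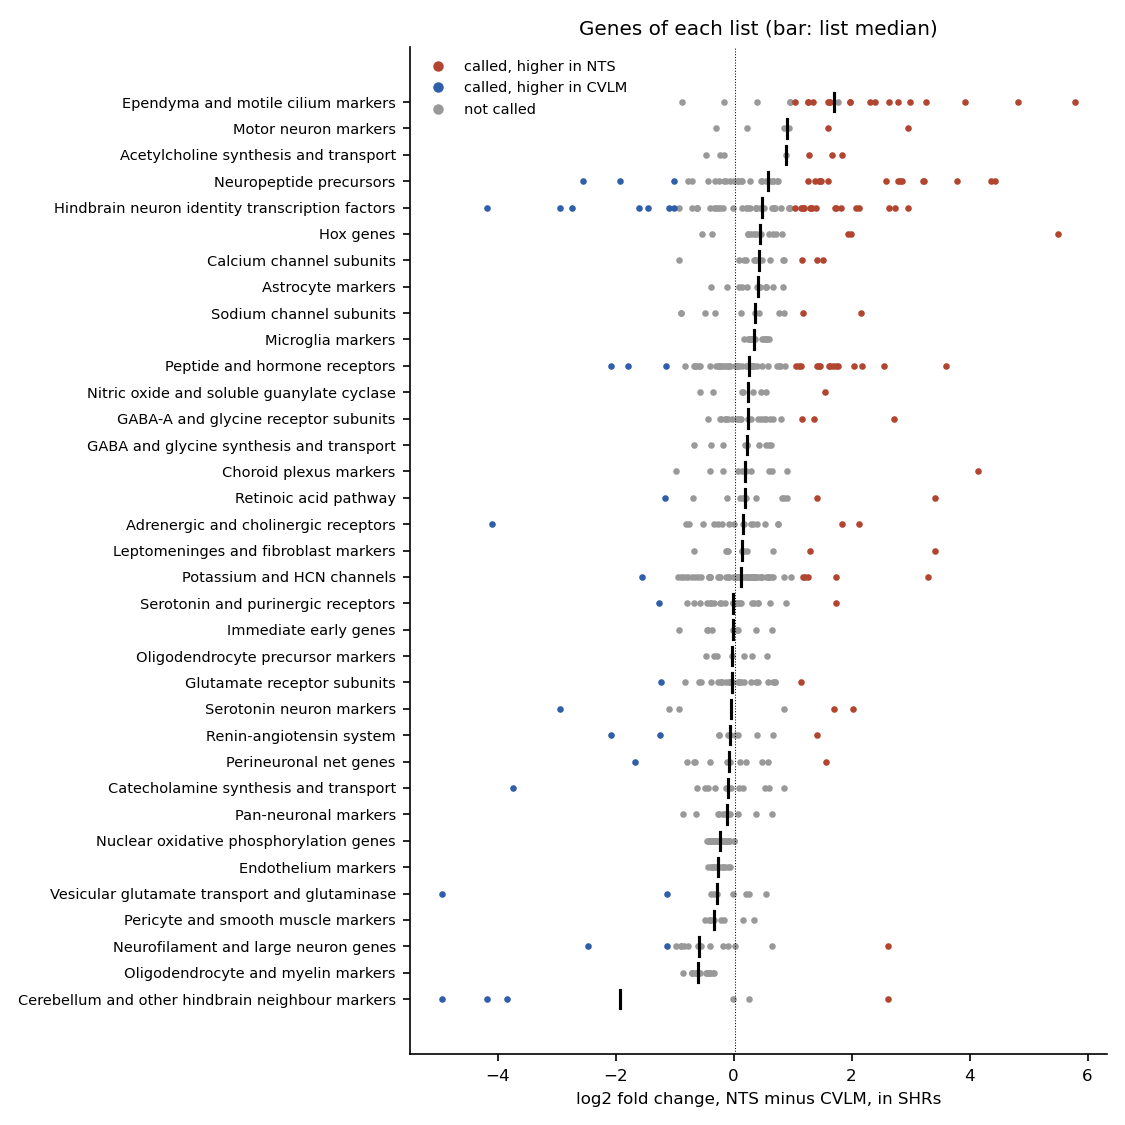
Log2 fold change (NTS minus CVLM in the 28 SHRs, x axis) of each tested gene of each list (rows), ordered by the list median (black bar); red and blue points are called genes and the dotted line is the median of all genes. The motile cilium list stands farthest to the right, with a median of 1.70, and neuropeptide precursors and transcription factors have called genes on both sides.

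Among the lists described, the largest share of called genes was in that of ependyma and motile cilia, the cells and organelles that line and move fluid at the ventricle. Of 24 tested, 18 (75%) were higher in the NTS, against 3.91% of all genes, and none in the CVLM. The filter on low values let a gene near 0 in the CVLM enter through the NTS alone, which favours a call in that direction. The median was 1.70 against 0.03 over all genes. Their summed level was 75.2 to 218 CPM in the NTS and 49.4 to 75.2 in the CVLM, higher in the NTS of 28 of 28 rats. Rsph9, a radial spoke protein, had 35.3 CPM (19.97 to 53.1) in the NTS against 8.34 (4.43 to 14.4), 1.97 ± 0.06 (edgeR adjusted p = 1.16e-23). Drc1, a part of the dynein regulatory complex, had 10.6 CPM (7.14 to 17.5) against 3.58 (2.49 to 5.63). Dnah12, an axonemal dynein, had 8.13 CPM (2.596 to 18.9) against 1.25 (0.23 to 3.06). The ependyma genes Ccdc153 and Tmem212 were low in both, with medians of 1.498 and 1.72 CPM in the NTS and 0.13 and 0 in the CVLM, and Foxj1 did not pass the filter on low values. Dnah11, another axonemal dynein, went the other way, with 2.39 CPM against 3.93, -0.87 ± 0.11.

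The promoters of the cilium genes were searched with the same 15 strings. GTTGCTAGG, a form of the X-box that RFX factors bind, was in 5 of the 15 cilium genes that were higher in the NTS and had a promoter (33.3%), in 5 of 19 tested (26.3%) and in 95 of all 10239 (0.928%). GTTGCCAT, another form, was in 1 of the 15, Tekt1, and in 1.01% of all. The genes with GTTGCTAGG were Cfap43, Dnah12, Dnai2, Dynlrb2 and Hydin. Of them, 4 are printed because they show the string on either strand, 100 bases each, 5′ to 3′ on the strand of the gene, with the string or its complement CCTAGCAAC in capitals. They lie on GRCr8 at chr19:55146342-55146441 (Hydin), chr10:100258915-100259014 (Dnai2), chr19:61428980-61429079 (Dynlrb2) and chr16:1944606-1944705 (Dnah12), all on the plus strand.
Hydin: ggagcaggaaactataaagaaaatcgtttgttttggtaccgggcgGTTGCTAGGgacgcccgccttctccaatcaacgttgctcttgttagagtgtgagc
Dnai2: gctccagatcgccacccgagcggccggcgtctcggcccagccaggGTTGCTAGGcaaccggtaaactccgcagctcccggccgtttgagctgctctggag
Dynlrb2: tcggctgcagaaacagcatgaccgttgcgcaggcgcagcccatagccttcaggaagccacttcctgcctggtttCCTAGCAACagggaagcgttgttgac
Dnah12: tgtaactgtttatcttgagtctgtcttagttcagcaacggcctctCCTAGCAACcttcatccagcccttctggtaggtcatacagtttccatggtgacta
The string begins 79, 62, 26 and 101 bases before the annotated start. These 4 genes were higher in the NTS by 1.26 (Hydin), 2.39 (Dnai2), 2.63 (Dynlrb2) and 2.79 (Dnah12) on the log2 scale.

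Glial and vascular markers had no called gene, but many passed the test below the fold threshold. Of 18 oligodendrocyte and myelin genes, 16 had an adjusted p of at most 0.01 and were higher in the CVLM, against 22.8% of all genes, with a median of -0.61. Mbp, a main myelin protein, had 15480 CPM (12120 to 28370) in the NTS and 31530 (24370 to 39030) in the CVLM, and the summed list was 21900 to 52640 against 42170 to 70050 CPM, lower in the NTS of all 28 rats. Of 15 astrocyte genes, 11 were higher in the NTS at that p, against 26.7% of all genes, and 1 in the CVLM, with a median of 0.41, and Gja1, connexin 43, had 363 CPM (317 to 426) against 207 (171 to 236) without overlap. At the same p, all 14 microglia genes tested were higher in the NTS, again against 26.7% of all genes, with a median of 0.34, as for P2ry12 with 31.1 against 24.6 CPM. Of 13 endothelium genes, 10 were higher in the CVLM, median -0.26, and of 9 pericyte and smooth muscle genes 6, median -0.33, both against 22.8% of all genes. Oligodendrocyte precursor genes had no called member among 7, against 5.22% of all genes, and a median of -0.02. At an adjusted p of at most 0.01, 3 of them were higher in the NTS and 2 in the CVLM. The part of these cell types in the differences of neuronal genes was not tested.

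Of the remaining lists, pan-neuronal genes had no called member among 12, with a median of -0.12. At an adjusted p of at most 0.01, 2 were higher in the NTS, with Gap43, a growth cone protein, at 0.65, and 5 in the CVLM, with Snap25 at -0.85. At that p, 26.7% of all genes were higher in the NTS and 22.8% in the CVLM. Immediate early genes had no called member among 9 and a median of -0.02, with 2 higher in the NTS at that p, up to 0.65 for Btg2, and 4 in the CVLM, down to -0.93 for Arc. Of 50 nuclear genes of oxidative phosphorylation, 38 were higher in the CVLM at an adjusted p of at most 0.01, against 22.8% of all genes, with a median of -0.23. Of 12 choroid plexus genes tested, Folr1 was called (8.33% of the list against 5.22% of all genes). It had 1.34 CPM (0.10 to 4.01) in the NTS and 0 (0 to 0.47) in the CVLM. Of 11 genes of leptomeninges and fibroblasts, Aldh1a2 and Fmod were called (18.2% against 5.22% of all genes). The defining genes Dcn (13.8 and 15.2 CPM), Lum (6.72 and 6.24) and Col1a1 (1.26 and 1.3) did not pass the test. None of 4 blood genes tested passed, with medians for Hba-a1 of 186 and 177 CPM.

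The region difference was compared between ages by a test of the region by age terms. It called 1 of 13927 genes (0.00718%), Pvalb, with 920 genes at an unadjusted p under 0.05. Pvalb encodes parvalbumin, a calcium buffer of fast-spiking neurons. The difference, NTS minus CVLM on the log2 scale, was 0.34 ± 0.42 (SD, n = 5) at 8 wk, -0.39 ± 0.34 (SD, n = 5) at 10 wk, -0.84 ± 0.41 (SD, n = 6) at 12 wk, -1.46 ± 0.29 (SD, n = 6) at 16 wk and -0.46 ± 0.61 (SD, n = 6) at 24 wk. The edgeR adjusted p for Pvalb was 0.0394, and it was 0.211 without the 8 wk rat whose labels conflict, 0.0816 without the 10 wk rats and 0.346 with rat left out of the model. At 8 wk the NTS had a median of 120 CPM (71.3 to 140) and the CVLM 85.0 (80.8 to 89.7), and at 16 wk 38.7 (26.3 to 49.5) and 103 (87.4 to 132), where the regions did not overlap. The next 5 genes, which did not pass, were Nr4a2, Kcnab3, Arhgap36, Susd2 and Adap1, of which Arhgap36 (adjusted p = 0.0335) and Susd2 (0.0212) passed under limma. Nr4a2 had a mean difference of 2.01 at 8 wk and 3.13 at 16 wk, and Arhgap36 one of -1.09 and 0.03. Over the genes called higher in the NTS, the median difference in a rat had an age median of 1.15, 1.34, 1.22, 1.38 and 1.36 from 8 to 24 wk. Over those higher in the CVLM it was -1.35, -1.31, -1.40, -1.26 and -1.28. These genes were called from the same rats, so the age medians are no separate test of the calls.

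**Figure D4:**
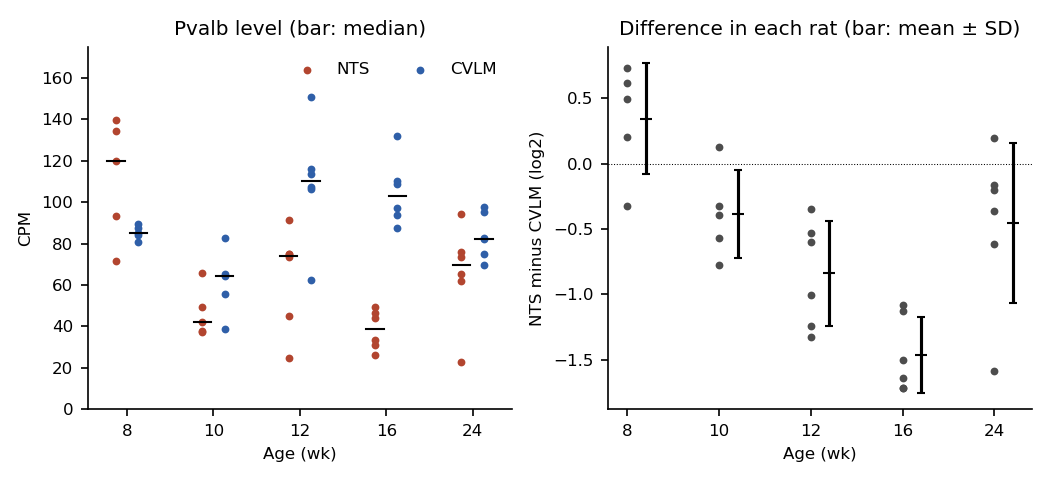
Pvalb by age in the 28 SHRs, as CPM in the NTS and the CVLM (left, bar at the median) and as the difference of each rat on the log2 scale, NTS minus CVLM (right, mean ± SD). At 16 wk all 6 rats lie below 0, with CVLM values of 87.4 to 132 CPM against 26.3 to 49.5 in the NTS.

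The WKY rats allowed the region difference to be examined in other animals. In their 18 pairs, 896 genes (6.43%) were called by the first rule, 668 higher in the NTS and 228 in the CVLM. Of the 544 genes higher in the NTS of SHRs, 509 were called in the same direction in WKY rats, 93.6% of the SHR list and 76.2% of the WKY list. Of the 183 higher in the CVLM, 149 were, 81.4% and 65.4% of the lists. All 544 had the same sign in WKY rats, as did 178 of the 183. The 5 exceptions, named after their values were seen, were RT1-DOb, Pkp1, Igfbp5, Cd300a and AABR07044404.1. For RT1-DOb and AABR07044404.1 no WKY library exceeded 0.632 CPM in either region.

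A test of region by strain, with CPM scaled over the libraries of both strains, found 94 genes (0.675%) whose region difference was another in SHRs than in WKY rats, 38 with a higher NTS minus CVLM difference in SHRs and 56 with a lower one, and 1373 had an unadjusted p under 0.05. The count was 38 with rat left out of the model and 65 without the 2 rats, 1 of them an SHR, whose labels conflict. Of the 94, 19 were among the genes called in SHRs. The lowest p belonged to Pbx3, a homeobox cofactor, which in SHRs was higher in the NTS (51.8 against 40.9 CPM, 27 of 28 rats) and in WKY rats higher in the CVLM (90.7 in the NTS against 116). Terf2ip, a telomere protein, had 116 and 109 CPM in SHRs and 184 and 117 in WKY rats. Tmem255b, a membrane protein, had 24.6 and 13.2 CPM in SHRs, higher in the NTS of all 28, and 12.3 and 12.2 in WKY rats. Aldh1a1, an aldehyde dehydrogenase, was higher in the CVLM in both strains, by 0.69 in SHRs and 1.55 in WKY rats. Cfap206, a cilium protein, was lower in SHRs in both regions, with 3.83 and 0.12 CPM against 33.1 and 8.68 in WKY rats. Cd24, a surface glycoprotein, Cbs, which makes hydrogen sulfide, and Pamr1 were higher in the NTS in both strains. The differences were 0.48, 0.67 and 0.92 in SHRs and 1.26, 1.37 and 1.48 in WKY rats. This held in 28 of 28 SHRs for Cbs and Pamr1 but in 22 of 28 for Cd24. Scaled over the 56 SHR libraries, Cd24 had a mean difference of -0.12 at 8 wk.

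Among genes of the lists and of the study's text, Igfbp5, an insulin-like growth factor binding protein, had 28.8 CPM (12.2 to 85.3) in the NTS and 87.2 (40.7 to 136) in the CVLM of SHRs, and 49.1 (12.5 to 161) and 23.0 (12.5 to 42.7) in WKY rats. It was higher in the CVLM of 26 of 28 SHRs and in the NTS of 14 of 18 WKY rats, and the difference between strains was -2.56 ± 0.34 (SE, edgeR adjusted p = 3.75e-06). Mas1 was higher in the CVLM of all 28 SHRs, with a strain difference of -1.56 ± 0.32. It lost its call in the rats with names ending in 1 (-0.99, edgeR adjusted p = 0.317), which include no rat of 10 wk. Npy4r, a pancreatic polypeptide receptor, and Tacr3, the neurokinin B receptor, were higher in the NTS in both strains, with strain differences of -1.91 ± 0.32 and -0.95 ± 0.22. Npy2r, a receptor of neuropeptide Y, had 4.15 and 6.35 CPM in SHRs and 4.93 and 3.91 in WKY rats. Ramp1, a CGRP receptor subunit, was higher in the NTS of 28 of 28 SHRs and 17 of 18 WKY rats.

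**Figure D5:**
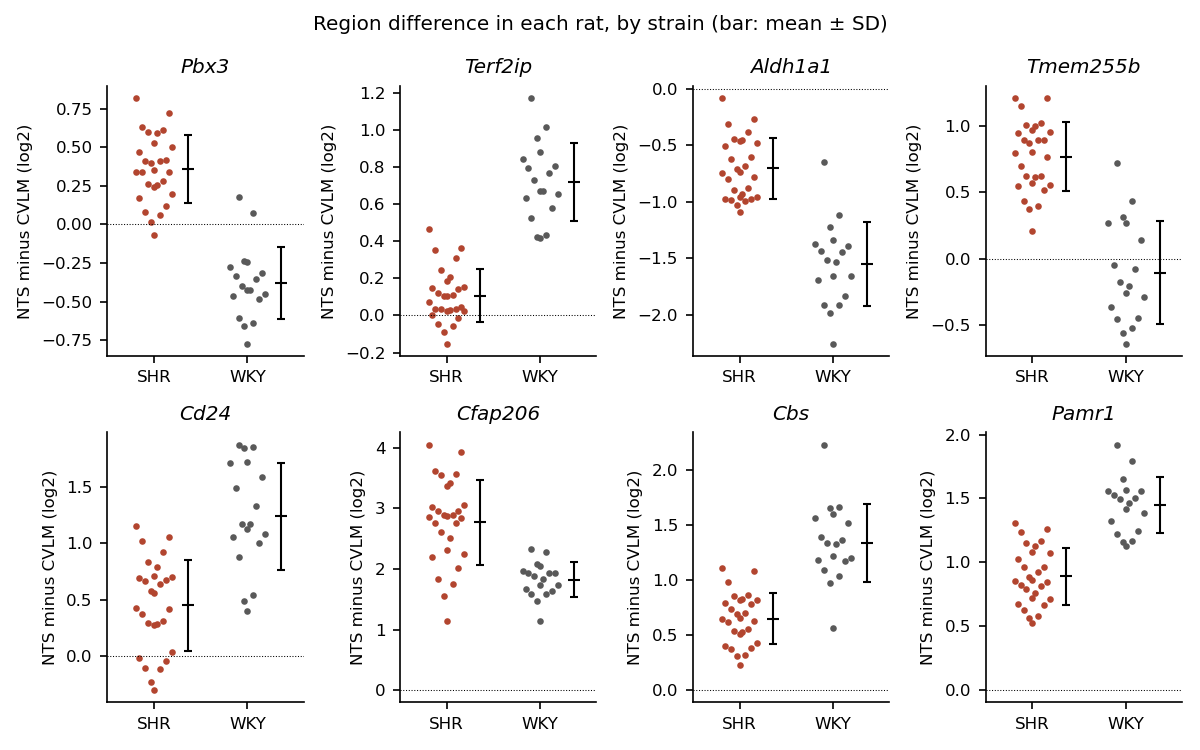
Region difference of each rat (NTS minus CVLM, log2 of CPM + 0.5) in the 28 SHRs (red) and 18 WKY rats (grey) for the 8 genes with the lowest p in the test of region by strain, with mean ± SD. Pbx3 lies above 0 in 27 of 28 SHRs and below 0 in 16 of 18 WKY rats, and Aldh1a1 lies below 0 in every rat.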

How the data were processed

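Per the labels and the study's methods, total RNA of bilateral micropunches was sequenced in paired ends, and the authors aligned the reads to rn6 with STAR and deposited RSEM expected counts per gene, 1 table per region. The methods name a batch adjustment of counts, and whether the tables hold it is not stated in the sources used here. Library names end in 1 or 2, and the labels do not say what this marks. All rats of 10 wk end in 2, and all SHRs of 8 and 16 wk end in 1. Some WKY rats of 8 wk end in 2. The ending is thus tied to age and spread unevenly over the strains, and its part in the age and strain results was not tested apart. Of the deposited values, 4.95% were not whole, and expected counts were rounded. Of 32883 genes, 13927 with a regularised log2 value of at least 3.5 in 1 or more libraries of the NTS or CVLM were tested. By the NTS libraries 13793 genes passed and by the CVLM libraries 13408, so some entered through 1 region only. This favours calls towards that region, in the lists too. Under the filterByExpr filter, 559 of the 727 called genes were tested and 557 remained called. edgeR 4.0.16 (R 4.3.3) was run with TMM scaling, rat as block and Benjamini-Hochberg adjustment. CPM are TMM-scaled. DESeq2 1.42.0 and limma 3.58.1 served as alternatives. The region by age and region by strain tests used an adjusted p under 0.05. No counting strand is stated, so overlapping or antisense genes and close paralogs are uncertain.

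The pairing comes from the labels, which give both libraries of a rat 1 name. Deviations from the group means correlated within a rat at a median of 0.476 (-0.156 to 0.837) and over 0.1 in 21 of 28 rats, against -0.064 between rats. Each deviation is taken from the mean of its own group, so a positive value within rats by itself makes the value between rats negative. The value between rats is thus no separate support for the pairing. Among the 130 pairs of SHR libraries of 1 region and age in the NTS and CVLM, none were duplicates. Other pairs of libraries were not compared. In simulated counts with known changes, the paired test found 88% of genes changed by 0.5 and 100% changed by 1 on the log2 scale, the region by age test 26% and 80%, and the region by strain test 66% and 90%. A gene counted as found by its adjusted p alone, without the fold threshold that the calls between regions also need. The changed genes were drawn from those above a minimum mean count. The change by age was set at 12 wk only. The members and gene lists were chosen with earlier results of these data known. Named genes were the 12 largest per direction (1 sign in all rats, median of at least 5 CPM), the first 3 and up to 6 called genes of each list, the 6 and 8 lowest p by age and strain, and genes the study names. Adcyap1, Arc, Btg2, Cfap43, Crhr1, Dnah11, Dnai2, Drc1, Dynlrb2, Ebf3, Gap43, Gja1, Npy4r, Oxtr, Penk, Scn4b, Tac3, Tekt1, Vamp1 and Vip were added after their values were seen. Some genes under these rules are not reported here.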

Additional observations from a re-analysis of the deposited data

Results flagged for a closer look

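The genes below were picked out because the region difference, NTS minus CVLM on the log2 scale, was another in SHRs than in WKY rats by the edgeR test of region by strain. Dixon's test for outlying samples was applied only to Pvalb, Nr4a2, Kcnab3, Arhgap36, Susd2 and Adap1, in the SHRs of each age. Those genes had the lowest p in the region by age test, and no sample stood apart in any of the 30 groups tested. The region by strain genes of this paragraph and the WKY rats were not tested for outlying samples. The SHR minus WKY value was 0.77 for Pbx3, 0.87 for Aldh1a1, 0.90 for Tmem255b, 2.28 for Cfap206 and 0.44 for Ramp1. It was -0.62 for Terf2ip, -0.88 for Cd24, -0.72 for Cbs, -0.57 for Pamr1, -2.56 for Igfbp5, -1.56 for Mas1, -1.91 for Npy4r, -0.95 for Tacr3 and -0.86 for Npy2r. The Cfap206 value rests on levels near 0 in the CVLM of SHRs, with a median of 0.12 CPM (0 to 1.21), so its size is uncertain. For AABR07044404.1 the SHR minus WKY value was -4.43, a fitted value against a strain with no more than 0.365 CPM in any library, so it is no measure of size. The rats with names ending in 1 include no rat of 10 wk. In the rats with names ending in 1, the edgeR adjusted p was 0.317 for Mas1, 0.114 for Tacr3, 0.0967 for Npy2r, 0.0956 for Ramp1 and 0.317 for AABR07044404.1, and with rat left out of the model it was 0.0502 for Ramp1 and 1 for AABR07044404.1.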

How the results depend on the processing

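The number of genes called between the regions ran from 560 to 749 over other scalings, tests and the filterByExpr filter, with the median log2 fold change of all genes at no more than 0.042. It was 1106 with no filter (312 higher in the CVLM, with 22715 genes tested), 241 at a log2 threshold of 2 (177 and 64) and 409 at 8 wk alone (265 higher in the NTS). Leaving out 1 rat gave 718 to 746 genes, 531 to 558 higher in the NTS and 177 to 192 in the CVLM, and 705 to 722 of the 727 remained called. With no replicate block, that is, without the pairing by rat, 725 genes were called (541 and 184), and 634 between the CVLM and RVLM.

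The count of genes with a region difference by age was 0 with no replicate block, 0 without the rat with conflicting labels, 0 without 10 wk and 3 by limma. The count by strain was 38 with no replicate block (14 higher and 24 lower in SHRs), 61 without the region by age term (21 higher), 138 by limma (62 higher), 65 without the 2 rats with conflicting labels (25 higher) and 45 in rats with names ending in 1 (16 and 29). The cause of these shifts was not tested.

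Of the 727 called genes, 1 turned its sign at 8 wk alone and 2 at 16 wk alone. Among the genes of the naming rule, those that turned with 1 age fitted alone were, at 8 wk, Calca (-0.15), Slc6a4 (0.20), Adra1d (-0.22), Aldh1l1 (0.11), Dcn (0.043) and Col1a1 (0.33). At 10 wk they were Slc32a1 (0.13), Ace (0.034), Cspg4 (0.19), Pdgfrb (-0.01), Kl (0.18), Col1a1 (0.96), Hba-a2 (-0.047) and Hbb (-0.22). At 12 wk they were Adra1d (-0.001), Ace (0.043), Cspg4 (0.052), Tmem119 (-0.047) and Ndufa1 (0.42). At 16 wk they were Htr1d (0.11), Ace (0.10), Cacna1a (-0.30), Hba-a1 (-0.086), Hba-a2 (-0.019), Hbb (-0.082) and Syt1 (0.097). At 24 wk they were Th (0.43), Ttr (-1.45), Kl (0.20) and Ndufa1 (1.61). With no replicate block Ndufa1 was 0.036, and with 1 rat left out Cspg4 ran from -0.059 to 0.007 and Ttr from -0.087 to 0.526.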
